A study of Homo sapiens with 2 samples.

Results

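The genes described here encode the chaperones, disulfide enzymes and degradation factors that act on proteins of the endoplasmic reticulum (ER). They were taken from a list of 38 genes by their symbols, as those with at least 1 probe set that the platform annotation pairs with that symbol alone. This gave 35 genes, read by 76 of the 54613 probe sets, out of 19775 genes represented in all. PDIA5, TXNDC5 and SYVN1 had no probe set of their own, because the probe sets that read them carry a second symbol. Total RNA came from cells labelled PC-3, a prostate cancer line that does not need androgen to grow, after 24 h with 10 µmol/L RD (riccardin D, a bisbibenzyl from a liverwort) or as control, with 1 Affymetrix HG-U133 Plus 2.0 array per condition. The dose is that of the study's description of its array experiment, since the sample labels name none. The control label reads as untreated, whereas the protocol names DMSO vehicle. Both cultures were grown in the same medium with serum, and the labels name no allele or transgene.

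Proteins that enter the secretory pathway fold in the ER lumen with the help of the Hsp70 chaperone BiP, of lectin chaperones that read N-glycans, and of enzymes that form and reshuffle disulfide bonds. Chains that fail to fold are recognised, moved back across the membrane, ubiquitinated and extracted for the proteasome, a route known as ER-associated degradation (ERAD). The promoters of many of these genes carry an ER stress element, a bipartite site read by NF-Y together with ATF6 or by XBP1, and a lack of folding capacity is known to raise their transcription through the unfolded protein response.

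The promoter sequences are shown first. The ER stress element was itself described from promoters of such genes, HSPA5 and HSP90B1 among them, so how often it occurs in the listed genes is not independent of their choice. RefSeq windows (GRCh38.p14) that run from 250 bases before to 50 bases after a start site were searched for the ER stress element, CCAAT and CCACG with exactly 9 bases between them, on both strands. Of 35116 windows, 27 (0.0769%) held it, and these belonged to 25 of 27305 genes. Of the 38 listed genes, 33 had a window and 8 of the 33 (24.2%) held the element, namely HSPA5, HSP90B1, CALR, CANX, PDIA6, ERO1B, CRELD2 and XBP1. The whole window of HSPA5, which encodes BiP, lies at chr9:125241294-125241593 on the minus strand and is printed in the direction of transcription, with both parts of the element in capitals, beginning 66 bases before the start site.
HSPA5: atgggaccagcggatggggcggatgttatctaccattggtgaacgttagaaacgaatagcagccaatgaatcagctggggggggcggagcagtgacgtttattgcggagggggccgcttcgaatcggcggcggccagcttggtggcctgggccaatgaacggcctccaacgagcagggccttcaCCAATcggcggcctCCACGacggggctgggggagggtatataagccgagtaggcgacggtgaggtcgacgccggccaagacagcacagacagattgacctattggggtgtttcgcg

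The other matches are printed with up to 20 bases on each side, in the direction in which the element reads from CCAAT to CCACG, again with both parts in capitals. HSP90B1 held the element at 2 places in opposite orientations. The match of CANX was the same one in 3 windows that belong to different start sites of the gene, and the PDIA6 match lay in 1 of its 2 windows. That of ERO1B lies at the edge of its window and is shown as far as the window reaches.
HSP90B1 (chr12:103930196-103930254, plus strand): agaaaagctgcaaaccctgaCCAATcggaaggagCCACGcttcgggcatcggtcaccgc
HSP90B1 (chr12:103930301-103930359, minus strand): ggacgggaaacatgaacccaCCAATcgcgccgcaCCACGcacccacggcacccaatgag
CALR (chr19:12938364-12938422, minus strand): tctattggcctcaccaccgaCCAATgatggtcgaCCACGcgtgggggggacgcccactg
CANX (chr5:179698758-179698816, plus strand): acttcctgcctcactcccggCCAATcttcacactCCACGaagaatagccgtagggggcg
PDIA6 (chr2:10812833-10812891, minus strand): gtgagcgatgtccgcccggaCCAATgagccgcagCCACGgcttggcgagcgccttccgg
ERO1B (chr1:236282163-236282208, plus strand): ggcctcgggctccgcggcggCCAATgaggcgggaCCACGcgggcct
CRELD2 (chr22:49918534-49918592, minus strand): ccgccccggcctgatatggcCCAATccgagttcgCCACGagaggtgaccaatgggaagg
XBP1 (chr22:28800583-28800641, minus strand): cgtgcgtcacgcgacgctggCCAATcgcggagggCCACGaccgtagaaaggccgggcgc

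A shorter form, ATTGG and CCACG with 1 base between them (ERSE-II), is known from the HERPUD1 promoter. It was found in 19 of the 35116 windows (0.0541%), 3 of them of listed genes. HYOU1 held it at 2 places, and HERPUD1 and SDF2L1 at 1 place each. None of these 3 genes held the longer element in its window. These sequences are shown to set them beside the array values of the same genes.
HERPUD1 (chr16:56932005-56932055, plus strand): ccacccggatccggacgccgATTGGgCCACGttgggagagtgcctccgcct
HYOU1 (chr11:119057254-119057304, plus strand): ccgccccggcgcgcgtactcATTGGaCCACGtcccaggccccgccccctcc
HYOU1 (chr11:119057360-119057410, plus strand): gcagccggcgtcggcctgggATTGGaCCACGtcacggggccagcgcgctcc
SDF2L1 (chr22:21642094-21642144, minus strand): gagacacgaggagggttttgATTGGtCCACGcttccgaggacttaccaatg

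Each array gives 1 MAS5 signal per probe set, an intensity on a linear scale corrected for background and mismatch probes. Both arrays were on the same scale, with trimmed means of 495.8 (control) and 495.9 (RD). A gene is called higher or lower here when its ratio between the arrays was 2-fold or more and its larger signal reached 66.9, the median of all signals, which is termed the floor. The brightest probe set stood for a gene. With 1 array per condition there was no spread between cultures and no test, so any other difference between the 2 cultures cannot be told apart from RD. The only error that could be measured was how far probe sets of the same gene differed in their log2 difference, an SD of 0.76 over all probe sets at or above the floor and 0.34 over those at or above 377.4, the 75th percentile. For the ER genes described here it was 0.35 over 49 probe sets at or above that percentile. In bulk RNA, fewer cells with a transcript and less of it per cell give the same signal. As for the cell line, KRT18 was bright on both arrays, at 10224.2 in control and 15416.6 in RD-treated cells. KRT8 read 113.8 and 159.3 and PSCA 241.5 and 79.1, while EPCAM and CDH1, also fixed as epithelial markers, lay under the floor on both. The dim KRT8, EPCAM and CDH1 go against the label of an epithelial line, whereas KRT18 does not, and the cells are called by their label. KLK2, TMPRSS2, PTPRC, CD3E, COL3A1 and ALB were under the floor in every probe set. KLK3 and PECAM1 passed it in 1 probe set each, at 131.4 and 230.6 and at 121.6 and 72.7, and COL1A1 read up to 370.6 in control and 325.8 with RD. The bearing of these markers on the values of the ER genes was not tested.

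Transcripts of ER folding and ERAD genes were mostly higher in RD-treated cells. Of the 35 genes, 33 reached the floor, all of them on both arrays, and 30 of the 33 had the higher signal with RD. A ratio of at least 2 was found for 13 of 33 (39.4%), against 12.1% of 12818 genes that reached the floor. None was at least 2-fold lower, against 13.3% of all genes. The median log2 difference (RD minus control) was 0.89 over the 33 genes and -0.0022 over all genes. Of the 20 genes that stayed within 2-fold, 9 were at 1.5 times control or more, 8 lay between 1 and 1.5 times, and 3 were below control. DERL3 and RNF5 were under the floor on both arrays, so no difference is given for them. RNF5 is also read by a probe set that carries the symbol of its pseudogene as well, and that probe set was not used.

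**Figure D1:**
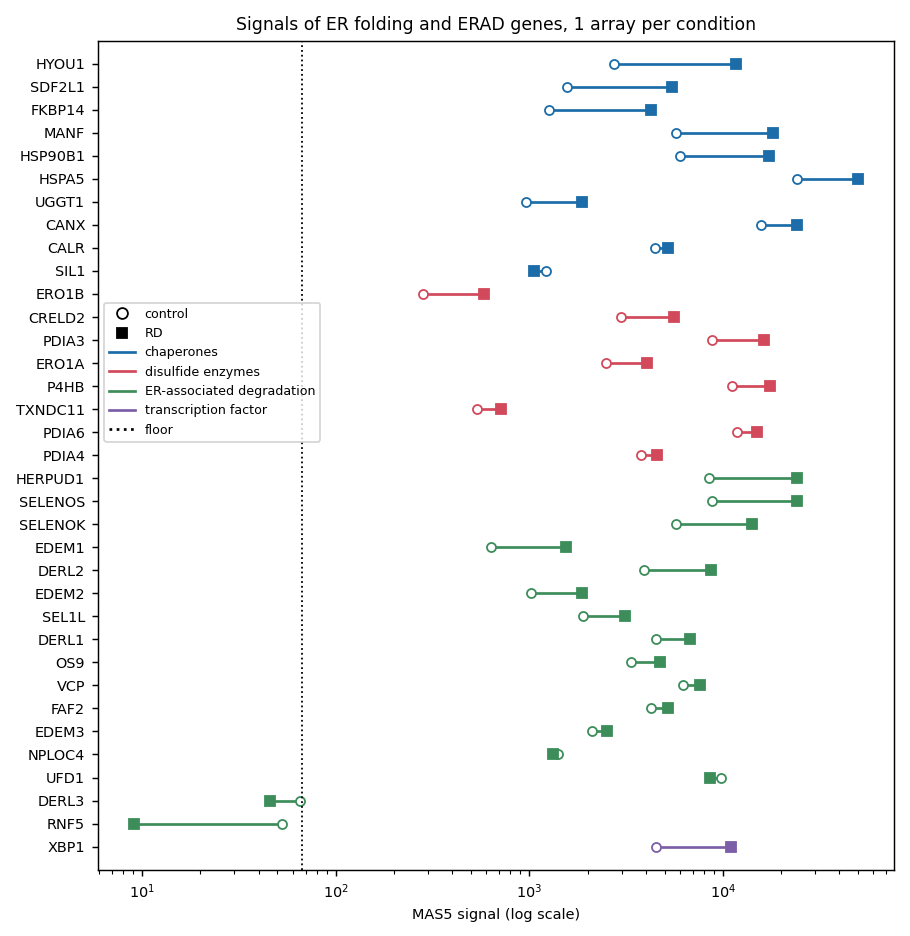
MAS5 signal (horizontal, log scale) of the brightest probe set of each of 35 ER folding and ERAD genes on the control array (open circles) and the RD array (filled squares), with 1 array per condition, coloured by role and ordered within each role by the size of the difference. Squares lie to the right of circles for 30 of the 33 genes beyond the floor of 66.9 (dotted line), and the longest shift among the chaperones is that of HYOU1.

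Among the chaperones, 6 of 10 were called higher, with 1.29 as the median log2 difference of the 10. BiP and proteins that act with it made up most of these. HSPA5 read 24282.1 in control and 50047.1 in RD-treated cells, a ratio of 2.06, and its dimmer probe set read 786.8 and 2799.1, which is 1.83 on the log2 scale against 1.04. The RD signal of the brighter one was 79.5% of the highest signal on that array, and whether the top of the scale bears on its smaller ratio was not tested. HYOU1 (GRP170), a large Hsp70 relative that exchanges the nucleotide on BiP, had the largest difference of the 33 genes by brightest probe set. With the median over probe sets HERPUD1 was at 2.87 on the log2 scale, above the 2.10 of HYOU1, although 1 of the HERPUD1 probe sets had a control signal under the floor. The signal of HYOU1 was 2749.7 in control and 11753.8 with RD, 4.28-fold higher, which placed HYOU1 386 among 12818 genes. SIL1, the other nucleotide exchange factor of BiP, was not higher. It read 1219.1 in control and 1055.3 with RD, at 0.866 of control. The 2 exchange factors thus lay 2.30 apart on the log2 scale.

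SDF2L1, a partner of ER J-domain proteins, read 1559.4 in control and 5440.6 with RD, 3.49-fold higher. Its paralog SDF2, which is not one of the 38 genes, read 1226.4 and 547.1 and was counted as lower, so the pair lay on opposite sides of control on these arrays. MANF, a small soluble ER protein that binds BiP, read 5748 and 18178.5, at 3.16 times control. HSP90B1 (GRP94), the Hsp90 of the ER, read 5985.8 and 17368.1, at 2.90 times control, and its second probe set had a like log2 difference of 1.63. Both of its probe sets carry the name suffix that marks sequence shared with other transcripts. FKBP14, a prolyl isomerase of the ER, read 1269.7 and 4256.4, at 3.35 times control, and its 3 probe sets lay between 1.64 and 1.75 on the log2 scale. Each of the 3 probe sets of FKBP14 alone would thus have given the same call.

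Members of the lectin chaperone cycle lay closer to control. CANX (calnexin), the membrane-bound lectin, read 15667.8 in control and 24093.6 with RD, at 1.54 times control, and the 4 of its probe sets at or above the floor lay between 0.62 and 1.23 on the log2 scale. CALR (calreticulin), its soluble counterpart, read 4439.4 and 5214.3, at 1.18 times control, and its second probe set was at 1.21. Both carry the shared-sequence suffix. The dimmer CALR probe set without it read 576 and 984.5, at 1.71 times control. UGGT1, which marks misfolded glycoproteins for another round with these lectins, read 967.8 and 1873.8, at 1.94 times control and just short of 2-fold. Its 5 probe sets did not agree and ran from -0.17 to 0.95. None of these 3 genes reached 2-fold by its brightest probe set.

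Disulfide enzymes were above control by less than the chaperones, a difference between the groups that was not tested. All 8 measured members lay above control, from 0.27 to 1.05 on the log2 scale with a median of 0.68, but only ERO1B reached 2-fold (12.5%, close to the 12.1% of all genes). ERO1B, an oxidase that passes oxidising equivalents to protein disulfide isomerases, read 281.6 in control and 583.6 with RD, 2.07-fold higher. Its other probe set read 131.4 and 788.4, which is 2.58 on the log2 scale, so the direction was shared and the size was not. For ERO1A, the more widely expressed oxidase, the direction itself differed between probe sets. The brightest read 2498.2 and 4053.6, at 1.62 times control, whereas the second read 1190.6 and 794.1, at 0.667 of control, and the third was at 1.07.

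The isomerases themselves stayed within 2-fold. PDIA3, which works with calnexin and calreticulin, read 8841.5 in control and 16353.7 with RD, at 1.85 times control, and its dimmest probe set read 435.2 and 434.2. P4HB, the classical isomerase and a subunit of collagen prolyl hydroxylase, read 11109.1 and 17579.9, at 1.58 times control. PDIA6 read 11843.2 and 15105.4, at 1.28 times control, PDIA4 read 3793.5 and 4576.7, at 1.21 times control, and their probe sets agreed to within 0.21 on the log2 scale. By brightest probe set, these 2 isomerases thus lay closer to control than P4HB and PDIA3. For PDIA3 the order did not hold at its dimmest probe set. Its remaining probe set was at 0.52 on the log2 scale, near the 0.48 of the second PDIA4 probe set. CRELD2, an ER protein with isomerase activity, read 2980.8 and 5598.4, at 1.88 times control. TXNDC11, a membrane protein with thioredoxin domains, read 539.3 and 718.1, at 1.33 times control.

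**Figure D2:**
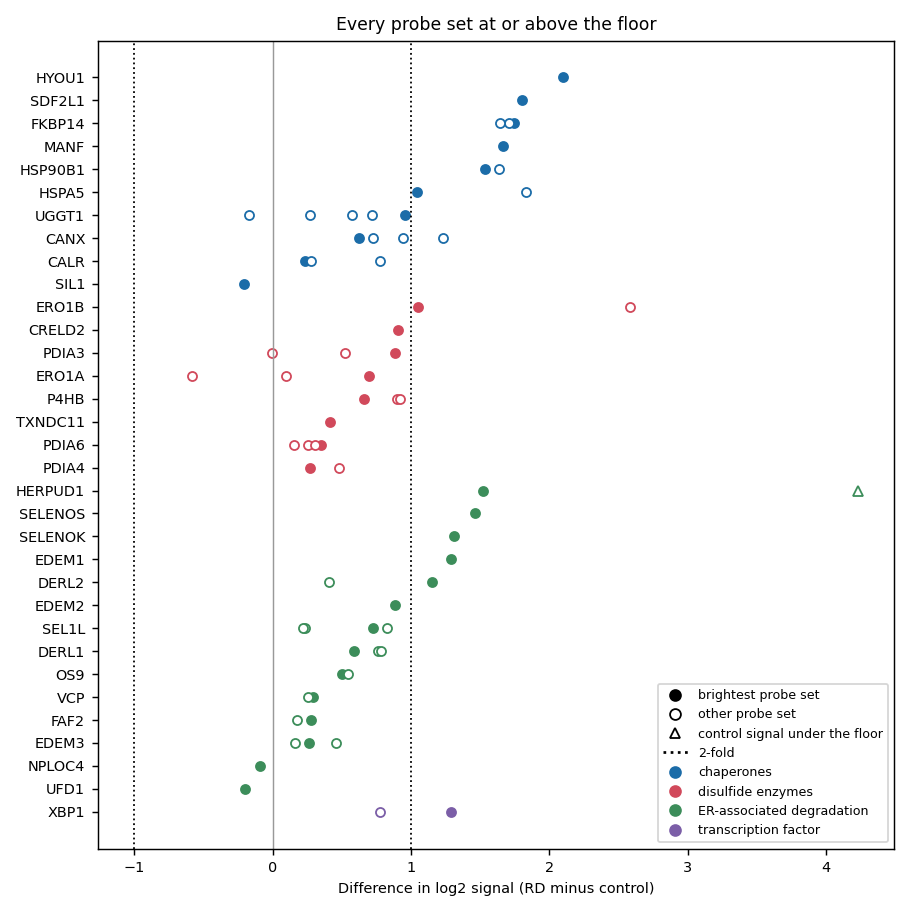
Log2 difference between the arrays (RD minus control, horizontal) for all 70 probe sets at or above the floor for 33 ER folding and ERAD genes, with filled symbols for the brightest probe set of a gene, open symbols for its others, and dotted lines at 2-fold. The open triangle of HERPUD1 has a control signal under the floor, so its place is not a bound. Of the 70 probe sets, 64 lie to the right of 0, 20 lie at or beyond 2-fold on that side and 0 do so on the other.

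In ERAD, 5 of 14 measured genes were called higher (35.7%), with a median log2 difference of 0.65. The 14 genes were further divided by where their products act, after their values had been seen. Of 6 measured membrane proteins of the pathway, 4 were called higher, and their median was 1.23. HERPUD1, which organises the HRD1 ligase complex, read 8476.8 in control and 24269.3 with RD, 2.86-fold higher. Its second probe set read 16.7 and 313.4 and was at least 4.68-fold higher, counted against the floor. The selenoproteins SELENOS and SELENOK, which tie VCP to the membrane complex, lay close to HERPUD1 in size. SELENOS read 8789.8 and 24164.4, at 2.75 times control. SELENOK read 5700.7 and 14132.1, at 2.48 times control.

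Derlins and the HRD1 adaptor followed with smaller differences. DERL2, a rhomboid-like membrane protein of the retrotranslocation site, read 3924.8 in control and 8727 with RD, at 2.22 times control, although its dimmer probe set was at 1.33. Its relative DERL1 read 4506.8 and 6769.4, with 3 probe sets between 0.59 and 0.78 on the log2 scale. SEL1L, which couples lumenal substrates to HRD1, read 1892.8 and 3121.6, at 1.65 times control. Its 4 probe sets all lay above control, from 0.22 to 0.83.

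Among the lumenal proteins that read or trim glycans of misfolded proteins, the 3 EDEM genes had unlike ratios. EDEM1, of a family that removes mannose from such glycans, read 632.4 in control and 1542.9 with RD, 2.44-fold higher. EDEM2 read 1015.9 and 1878.3, at 1.85 times control, and EDEM3 read 2099.2 and 2519, at 1.20 times control, so the order of their ratios was EDEM1, EDEM2, EDEM3. The gap between EDEM1 and EDEM2 was 0.40 on the log2 scale, and each was read by 1 probe set. The SD of 0.34 is that of 1 bright probe set about the mean of its gene. A gap between 2 probe sets has a larger SD, so the order of EDEM1 and EDEM2 is not settled. OS9, a lectin that recognises trimmed glycans, read 3335.2 and 4731.4, at 1.42 times control.

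VCP and its partners lay near control. VCP, the ATPase that pulls ubiquitinated proteins out of the membrane, read 6192 in control and 7582.9 with RD, at 1.22 times control. FAF2, which recruits VCP to the ER membrane, read 4263.9 and 5180.6, at 1.22 times control. The cofactors UFD1, with 9808.5 and 8552.7, and NPLOC4, with 1414.9 and 1331.1, were at 0.872 and 0.941 of control. Together with SIL1 they were the 3 genes below control. The 4 genes had a median log2 difference of 0.10 and none reached 2-fold. FAF2 is itself anchored in the membrane, and counted with the membrane proteins above it made them 4 of 7, with a median of 1.15.

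XBP1, the transcription factor whose targets include many of the genes above, read 4515.4 in control and 11022.2 with RD, 2.44-fold higher. Its dim second probe set read 77.4 and 132.8. The probe sets are named by gene and not by splice form, so the spliced and the unspliced transcript were not separated here.

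The stress element can now be set beside these values. Of the 25 genes whose window holds it, 14 reached the floor, of which 7 were at least 2-fold higher and 1 was lower, with a median log2 difference of 0.96. Among 10401 genes whose windows lack it, all of them at or above the floor, 11.8% were called higher and the median was -0.0042. The 8 ER genes with the element had a median of 0.98 and all lay above control, and 4 of them, HSP90B1, XBP1, ERO1B and HSPA5, were at least 2-fold higher. The 21 measured ER genes with a window that lacks this longer element had a median of 0.72, and 8 of 21 were at least 2-fold higher. These 8 include the 3 genes that hold the shorter form. The 3 ER genes with the shorter form were HYOU1, SDF2L1 and HERPUD1, at 4.28, 3.49 and 2.86 times control. Of 13 other genes with that form that reached the floor, 0 were called higher. The 1 called lower was the uncharacterised LOC100127955, at 69.5 and 32.2. Of 10399 genes at or above the floor whose windows lack that form, 11.8% were called higher. The 13 genes are too few to be set apart from that share. These counts describe 1 pair of arrays and were not tested, and a match of letters in a window is not a measured binding site. Genes were counted by symbol, so 1 site shared by neighbouring genes would count for each of them.

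Outside the list, 3 of 6 measured genes with the longer element were called higher. Whether any of the 6 share a site with a neighbouring gene was not examined. They are named after their values were seen. FICD, an enzyme that modifies BiP, read 796 in control and 3752.9 with RD. SERP1, a small protein that binds the translocon, read 5082.1 and 19698.6. EIF2A, a translation factor, read 10866.3 and 21747.1, at 2.00 times control. The 1 gene called lower was TMEM120A, with 1229.1 in control and 431.2 with RD.

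**Figure D3:**
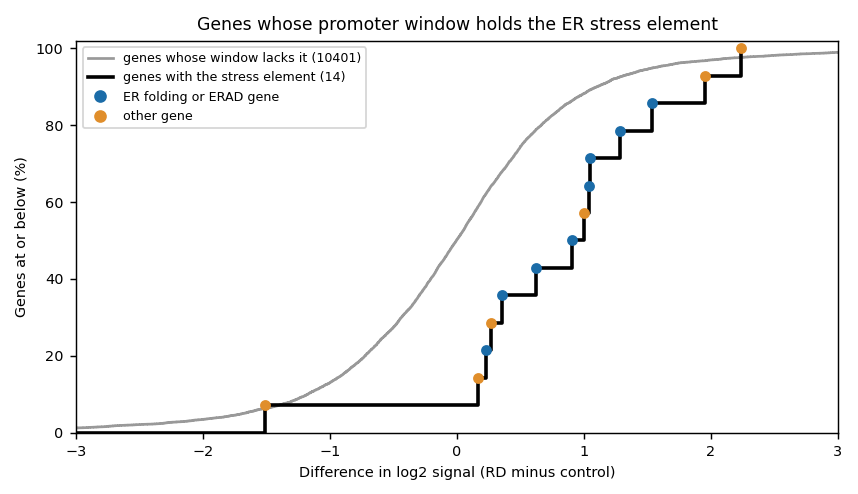
Cumulative share of genes (vertical, %) at or below each log2 difference between the arrays (RD minus control, horizontal) for 14 genes whose promoter window holds the ER stress element (black steps, blue points for the 8 ER folding and ERAD genes, orange points for 6 others) and for 10401 genes whose window lacks it (grey). The black steps lie to the right of the grey curve except at their lowest and highest points, with medians of 0.96 and -0.0042.

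Other ER genes, listed beside the 38, did not all share the direction. All 6 ER J-domain proteins, co-chaperones of BiP, were above control, with a median log2 difference of 1.30. Of them, 4 (66.7%) were at least 2-fold higher, against 12.1% of all genes. DNAJB9 led them with 3198.8 in control and 21657.2 with RD, at 6.77 times control, followed by SEC63, DNAJC3 and DNAJB11 at 2.74, 2.66 and 2.28 times. In contrast, 23 further folding enzymes had a median of -0.02, with 3 (13.0%) at least 2-fold higher and 2 (8.7%) lower. Over all genes these shares were 12.1% and 13.3%. The lists, like the 38 genes, were drawn up with earlier results of these data known, and this contrast was not tested. The 3 were FKBP11, HSPA13 and ERP44, at 3.23, 2.52 and 2.16 times control. The 2 were SDF2, at 0.446 of control, and the dim ERP27, which read 114.3 and 47.4. Among the brighter genes of this list, those at or above the 75th percentile, FKBP7 at 0.635 and TMX1 at 0.664 of control came after SDF2. Of 20 further ERAD genes, 3 (15.0%) were higher and 1 (5.0%) was lower, with a median of 0.21. In both of these lists the share called higher was close to the 12.1% of all genes. HM13 was at 2.79, UBE2J1 at 2.04 and UBXN4 at 2.00 times control, while UBE4B was at 0.389, ERLIN2 at 0.573 and UBE2G2 at 0.590 of control.

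The listed chaperones outside the ER gave other values. Of 11 chaperone genes of the cytosol and mitochondria, mostly chaperonin subunits, 1 (9.09%) was called higher, against 12.1% of all genes. It was HSPA9 (the mitochondrial Hsp70), at 2.16 times control. Of the 11, 0 were at least 2-fold lower, 8 lay below control, and the median log2 difference was -0.21. The list holds no cytosolic Hsp70, Hsp90 or small heat shock gene, so it does not stand for all chaperones outside the ER. Next to HSPA9 were HSPD1 at 1.30 and CCT4 at 1.05 times control, and at the other end were TRAP1 (the mitochondrial Hsp90) at 0.560, HSPE1 at 0.683 and CCT7 at 0.716 of control. With 1 array per condition the difference between this list and the ER genes was not tested.

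**Figure D4:**
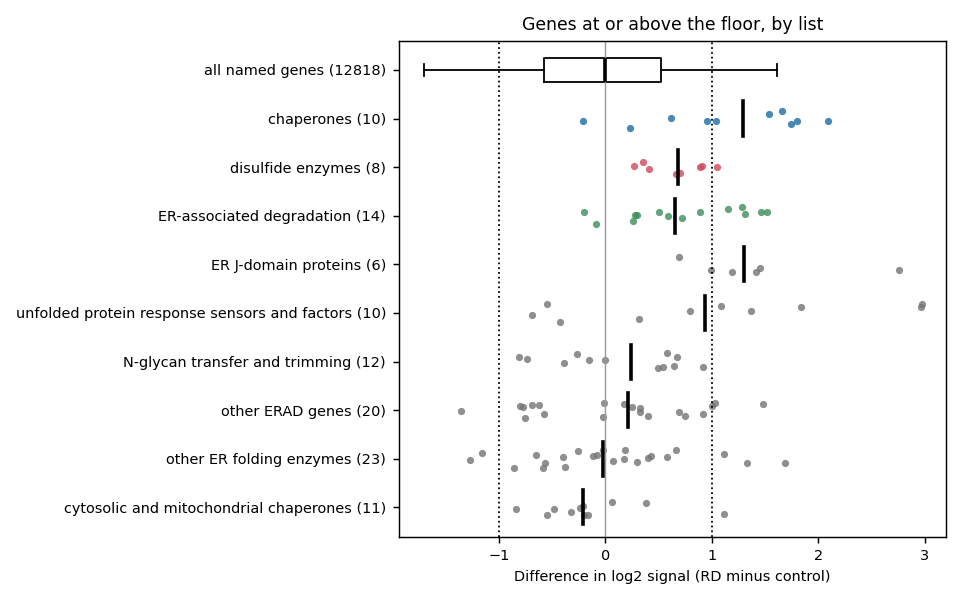
Log2 difference between the arrays (RD minus control, horizontal) for the genes of each list that reached the floor, whose number stands in brackets, black bars at the medians and dotted lines at 2-fold. The box of all 12818 named genes spans the quartiles, with whiskers at the 5th and 95th percentiles, and the medians of the 3 ER groups (1.29, 0.68 and 0.65) lie to the right of its median.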

How the data were processed

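The authors deposited 1 intensity per probe set and array, on a linear scale. Per the labels these are MAS5 signals. The MAS5 version and target were not given in the sources used here, and the values carry no detection calls. The log2 of the RD signal minus that of the control signal was taken for each probe set, without an offset or rescaling. Gene symbols came from the platform annotation, and a check of them in RefSeq's GRCh38.p14 gene table led to 0 changes. 41091 probe sets had 1 symbol, 1801 had several and were not used, and 11721 had none. Low signals are noisy after mismatch subtraction, hence the floor. The number of arrays, 1 per condition, limits the precision, and no p-value was computed. The methods state no statistical test for the arrays.

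The genes, their roles and the other lists were chosen with earlier results of these data known. Every member is named. Of the other lists, up to 3 genes at each end that reached the 75th percentile are named, as are marker genes and those stated to have been named after their values were seen. Promoter windows were matched by symbol, and the shorter element and the UPRE were added after the files had been read. Protein sequences were not analysed here. The alternatives were 2 scalings, an offset of 17.1, raising dim signals to the floor, 2 ways of choosing probe sets, 2 floors and 2 fold thresholds. The work was done in Python 3.11.15 with pandas 2.3.3 and numpy 2.4.6, and figures were drawn with matplotlib 3.10.9.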

Additional observations from a re-analysis of the deposited data

How the results depend on the processing

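Of 82 counts and medians recomputed under 10 alternatives, 72 kept their direction and stayed within 1.5 times (counts) or 0.34 on the log2 scale (medians). Raising dim signals to the floor, or a floor at the 75th percentile, could not change any of these. All 33 genes had both signals at or above the floor and the larger one at or above 377.4. Using only probe sets without a shared-sequence suffix gave 8 genes at least 2-fold higher of 23, against 12.7% of 9973 genes. The 8 included 3 of 7 chaperones and 3 of 7 ERAD genes. Here 10 of the 33 genes have no such probe set, and 5 of these 10 were counted as higher (HSP90B1, HYOU1, SDF2L1, HERPUD1 and SELENOS). Without a floor 1 gene, the dim RNF5, was counted as lower. A threshold of 1.5-fold gave 22 of 33 genes as higher, against 22.8% of all genes. These included 5 of 8 disulfide enzymes and 8 of 14 ERAD genes. A threshold of 3-fold gave 4 of 33 genes as higher, against 5.21% of all genes. The 4 were all chaperones, with 0 of 8 disulfide enzymes and 0 of 14 ERAD genes.

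Of 254 values of single genes, 9 moved by more than the SD between probe sets, in 8 genes, and 1 changed sign. Many of the 254 could not move. Raising dim signals and either change of the floor returned the same values, and median centring shifted every gene by the same small amount. With the median over probe sets, DERL2 was at 0.78 and no longer counted as higher, and HSPA5 was at 1.44. The sign changed for ERO1A, at -0.58 by its only probe set without the suffix against 0.70. HERPUD1 was at 2.87 with the median over probe sets. No paired analysis was possible because there is 1 array per condition, and no array could be left out. Dim probe sets limit what can be said of DERL3 and RNF5.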

Other observations

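The sensors and factors of the unfolded protein response had a median log2 difference of 0.94 over 10 genes, with 5 at least 2-fold higher and 0 lower. DDIT3 (CHOP) read 1838.1 in control and 14414.3 with RD, at 7.84 times control. EIF2AK3 (PERK), the kinase that slows translation under ER stress, read 1166.6 and 4171.3, at 3.58 times control. ERN1 (IRE1), which splices XBP1, read 97 and 757.3, at 7.81 times control, but its other probe sets read 135.3 and 62.2, and 110.4 and 152.7. CREB3L2 and ATF4 were at 2.58 and 2.12 times control. ATF6 was at 1.24 times control, and MBTPS1 and MBTPS2, the proteases that release it, were at 0.746 and 0.618 of control.

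Genes that transfer and trim N-glycans showed no common direction, with 6 of 12 above and 6 below control and a median log2 difference of 0.24. None was past 2-fold, against 12.1% higher and 13.3% lower over all genes. MOGS, RPN1 and DDOST were highest, at 1.89, 1.60 and 1.56 times control. PRKCSH, MAN1B1 and MAN1A1 were lowest, at 0.569, 0.601 and 0.763 of control.

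A further motif of XBP1 and ATF6, TGACGTGG (UPRE), occurred in 256 of 35116 promoter windows (0.729%). Of 119 genes at or above the floor with it, 23 were at least 2-fold higher and 8 lower, with a median log2 difference of 0.42, against 11.7% higher among 10296 genes without it. Among the ER genes it was found in the windows of HYOU1, TXNDC5, TXNDC11 and VCP. In HYOU1 it overlaps one of the shorter elements.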
